A study of Mus musculus with 4 samples.

Results

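The apoptosis machinery was followed in E14 mouse embryonic stem (mES) cells through 38 genes of the BCL2, caspase, inhibitor of apoptosis (IAP) and death receptor families, chosen as the probe sets that carry 1 of these gene symbols and no other. Of the 38 genes, 35 were measured, out of 18193 genes in all. Ripk1, Bcl2a1a and Pdcd5 had no probe set of their own in the annotation used and were not analysed here. Total RNA from 4 samples was hybridised to Affymetrix MG430 2.0 arrays, 1 array each: 2 samples of Zfp322a RNAi, transfected with a pSuper.puro plasmid that expresses a short hairpin RNA (shRNA) against Zfp322a, and 2 samples of control RNAi, transfected with pSuper.puro as a mock knock-down. All 4 were E14 cells grown with serum and LIF, lipofected and selected with puromycin, for 3 days according to the labels, although the methods of the study state more days for the arrays. The study's methods for the arrays describe a control plasmid that expresses an shRNA, whereas its other experiments name the empty vector. The sources used here do not give which of the study's shRNAs the arrays hold, and loss of Zfp322a cannot be told apart from off-target effects of a hairpin. Nothing in the labels says that the samples are separate cultures, and the spread behind each p-value may therefore be technical. Every level below is a log2 value made by robust multi-array averaging (RMA), so that a difference of 1 is a doubling of signal, and every change is Zfp322a RNAi minus control RNAi.

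Apoptosis runs through a pair of routes. In the mitochondrial route, BH3-only proteins such as Bim and Bmf bind and neutralise anti-apoptotic BCL2 proteins or activate the effectors Bax and Bak, which permeabilise the outer mitochondrial membrane. Cytochrome c then assembles with Apaf1 into the apoptosome and activates caspase-9, while Smac (Diablo) and Omi (Htra2) relieve the block that IAP proteins place on caspases. In the death receptor route, ligand-bound receptors recruit the adaptors Fadd or Tradd, and Fadd in turn recruits caspase-8, whose activation is held in check by c-Flip (Cflar). mES cells are known to die readily after DNA damage. All of these proteins are regulated after translation too, by cleavage, binding and degradation, none of which an expression array measures.

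Zfp322a itself, a zinc finger transcription factor, was at 7.53 and 7.13 in the Zfp322a RNAi arrays, against 8.75 and 8.84 in the control RNAi arrays, a log2 change of -1.47 ± 0.14 (SE, n = 2 each, limma adjusted p = 0.00158), or 36.2% of control. Its other probe set changed by -1.87. Over all genes, 28.4% passed the adjusted p of 0.05, 14% higher and 14.4% lower in Zfp322a RNAi. Arrays of a group correlated at 0.9975 for Zfp322a RNAi and 0.9976 for control RNAi over all probe sets, and arrays of different groups at 0.9887 to 0.9900. Markers of ES cells were high on all arrays (mean log2 value over the 6 genes 12.44 to 12.45 in Zfp322a RNAi and 12.56 to 12.61 in control RNAi), and of these only Utf1 passed the test, at -0.65. Endoderm markers averaged 6.10 to 6.14 in Zfp322a RNAi, against 5.76 to 5.78 in control RNAi, with 5 of 8 called higher and Gata6 the furthest at 1.42. The rest of these markers went the other way without passing the test, with -0.13 for Gata4, -0.16 for Afp and -0.155 for Ttr. Of 6 fibroblast and feeder markers 0 were higher and 1, Thy1, was lower at -0.56, and the collagen genes, Postn and Dcn lay between 3.75 and 5.93 on every array. The part of the endoderm markers in the results below was not tested, and fewer cells of a type cannot be told apart from less RNA per cell.

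The apoptosis machinery changed in both directions and by small amounts. Among the 35 measured genes, 9 (25.7%) passed the adjusted p of limma, near the 28.4% of all genes. Casp2, Xiap and Cflar were higher, 3 genes beside a background of 14%. Bcl2l1, Bak1, Bmf, Htra2, Birc2 and Tradd were lower, 6 genes beside a background of 14.4%. By the brightest probe set, which stands for the gene here, no member moved past 1.5-fold, whereas 8.25% of all genes did. These changes ran from -0.44 for Tradd to 0.52 for Casp2. Dimmer probe sets of Birc6 (0.79) and Xiap (0.73) lay past 1.5-fold. The median change was -0.03 for the members and -0.04 for all genes, and the median absolute change was 0.16 for both. For 24 of the 35 members every Zfp322a RNAi array lay on one side of every control RNAi array (68.6%, with 62.6% over all genes). The split of 3 higher and 6 lower moved to 6 and 4 when each array was centred on its median, and to 5 and 6 after a further quantile normalization. Over all genes the split of 2545 higher and 2618 lower moved to 2798 and 2216 with centring, and to 2560 and 2866 with quantile normalization.

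**Figure D1:**
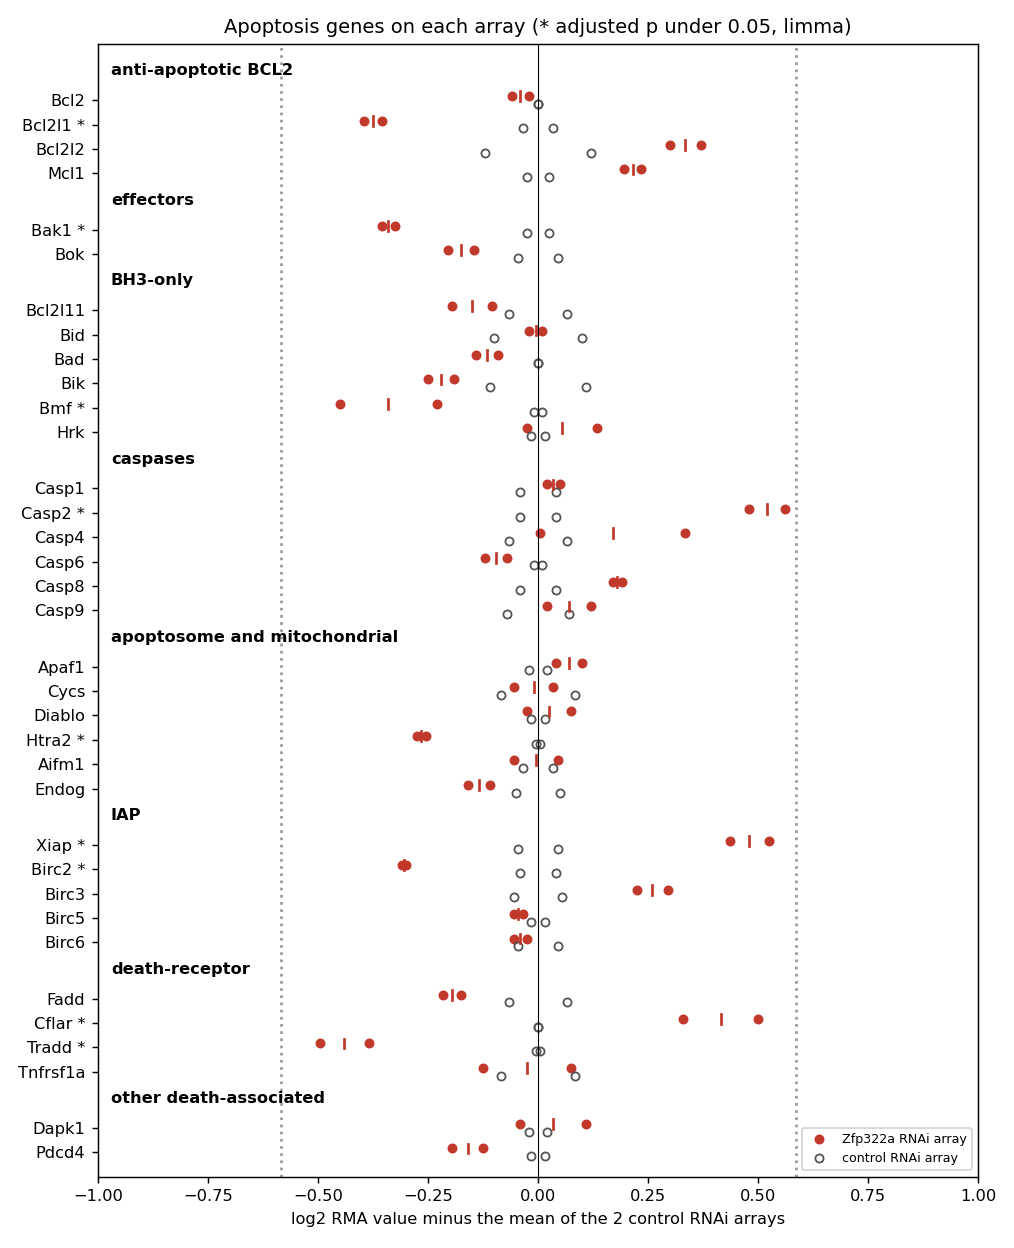
Log2 RMA value of the brightest probe set of each of the 35 apoptosis genes on each array, grouped by class down the page. The mean of the control RNAi arrays is subtracted (horizontal axis). Red points are Zfp322a RNAi arrays, with a red tick at their mean, open points are control RNAi arrays, dotted lines mark 1.5-fold and a star marks an adjusted p under 0.05. The red ticks lie between -0.44 and 0.52, inside the dotted lines for every gene.

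Calls were spread over genes that restrain death and genes that promote it. Of genes that restrain death, Bcl2l1 and Birc2 were lower while Xiap and Cflar were higher. Of genes that promote it, Bak1, Bmf, Htra2 and Tradd were lower while Casp2 was higher. For 3 of the 9 called genes, Casp2, Cflar and Bak1, a single start is annotated, and their promoters are shown so that genes of both directions can be read side by side. Each is 250 bases before to 50 bases after the start, from RefSeq on assembly GRCm38.p6, in the direction of the gene. Capitals mark matches, on either strand, to the GC box GGGCGG, the CCAAT box CCAAT, the TATA box TATAAA or the E-box CACGTG. Casp2 lies at chr6:42264735-42265034 (+), Cflar at chr1:58711241-58711540 (+) and Bak1 at chr17:27028578-27028877 (-).
Casp2: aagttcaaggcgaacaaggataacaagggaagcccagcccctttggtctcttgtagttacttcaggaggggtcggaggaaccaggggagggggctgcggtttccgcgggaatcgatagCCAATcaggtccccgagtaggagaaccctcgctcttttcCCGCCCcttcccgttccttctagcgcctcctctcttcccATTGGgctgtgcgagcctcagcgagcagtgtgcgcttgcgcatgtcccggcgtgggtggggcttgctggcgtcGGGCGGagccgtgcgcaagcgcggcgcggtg
Cflar: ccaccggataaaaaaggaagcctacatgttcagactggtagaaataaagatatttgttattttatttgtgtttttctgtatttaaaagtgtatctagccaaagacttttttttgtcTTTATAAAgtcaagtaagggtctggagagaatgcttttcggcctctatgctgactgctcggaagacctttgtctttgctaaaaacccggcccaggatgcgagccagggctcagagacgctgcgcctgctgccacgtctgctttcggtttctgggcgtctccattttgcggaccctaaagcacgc
Bak1: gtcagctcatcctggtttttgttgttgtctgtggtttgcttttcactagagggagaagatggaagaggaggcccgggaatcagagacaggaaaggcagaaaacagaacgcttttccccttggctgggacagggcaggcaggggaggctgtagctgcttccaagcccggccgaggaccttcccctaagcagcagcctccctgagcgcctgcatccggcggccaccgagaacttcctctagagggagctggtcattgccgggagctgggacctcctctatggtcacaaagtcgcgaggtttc
The Casp2 window had a GC content of 63.7%, with 2 GC boxes and 2 CCAAT boxes. The Cflar window had a GC content of 45.0%, and its capitals are 2 overlapping matches to TATAAA, 1 on each strand. The Bak1 window, with a GC content of 58.3%, held none of the 4 motifs. Promoters were found for 32 of the measured members, 43 windows in all, of which 25 (58.1%) held a GC box, with 35.7% of all 32851 promoters. A CCAAT box stood in 13 of the 43 (30.2%, with 37.4% of all), TATAAA in 2 (4.65%, with 13.6%) and CACGTG in 1 (2.33%, with 7.15%). These matches describe letters in the windows and say nothing of which factor binds there.

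Anti-apoptotic BCL2 proteins bind BH3-only proteins and effectors and so hold the mitochondrial membrane closed. Of the 4 measured, 1 was lower and 3 were not called. Bcl2l1, which encodes Bcl-xL, was at 8.84 and 8.88 in the Zfp322a RNAi arrays, against 9.20 and 9.27 in the control RNAi arrays. Both Zfp322a RNAi arrays were below both control arrays, and the change was -0.38 ± 0.07 (SE, n = 2 each, limma adjusted p = 0.0119), 77.1% of control. Its 3 dimmer probe sets changed by -0.33, -0.13 and -0.02 without passing the test, and the mean over all 4 probe sets was not called (-0.21, limma adjusted p = 0.0858).

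Mcl1, a short-lived anti-apoptotic protein on which early embryonic cells depend, gave opposite signs by probe set. Its brightest probe set was at 13.02 and 12.98 in Zfp322a RNAi, against 12.81 and 12.76 in control RNAi, a change of 0.22 ± 0.07 that missed the threshold (SE, n = 2 each, limma adjusted p = 0.0656). The groups did not overlap. A dimmer one was at 11.63 and 11.62 in Zfp322a RNAi, against 11.94 and 11.91 in control RNAi, and was called lower over all probe sets (-0.30, limma adjusted p = 0.0384). Of the other 4 probe sets, 3 changed by -0.25 and 1 by 0.13, none past the test, so that no single direction can be given for Mcl1. For Bcl2l2 (Bcl-w) the levels were 7.41 and 7.48 in Zfp322a RNAi and 6.99 and 7.23 in control RNAi, a change of 0.34 ± 0.10 just outside the threshold (SE, n = 2 each, limma adjusted p = 0.0513). Bcl2 changed by -0.04, with values of 6.39 to 6.45 over the 4 arrays.

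The effectors Bak and Bok form pores in the mitochondrial membrane. Bak1 was at 7.64 and 7.67 in Zfp322a RNAi, against 7.97 and 8.02 in control RNAi. The arrays of the groups lay apart, and Bak1 was lower by a log2 change of -0.34 ± 0.07 (SE, n = 2 each, limma adjusted p = 0.0151), or 79.0% of control. Its second, dimmer probe set changed by -0.15 and did not pass. Bok was at 7.95 and 7.89 in Zfp322a RNAi and 8.05 and 8.14 in control RNAi, a change of -0.18 (limma adjusted p = 0.134). Bax, the remaining effector, had no probe set of its own in the annotation used and was not analysed here.

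BH3-only proteins carry the death signal to the BCL2 family. Of 6 genes, 1 was called, Bmf, which is held at the cytoskeleton in healthy cells. Bmf was at 8.47 and 8.25 in Zfp322a RNAi, against 8.69 and 8.71 in control RNAi. The groups did not overlap, although the Zfp322a RNAi arrays differed from each other by more than those of the other 8 called members, and the change was -0.34 ± 0.09 (SE, n = 2 each, limma adjusted p = 0.0402), 79.0% of control. Without the probe sets that can bind more than 1 transcript the sign turned, to 0.04 (limma adjusted p = 0.806). Only the dimmest of 3 probe sets then remained. Bmf also lost its call with the mean over its probe sets (-0.15, limma adjusted p = 0.161) and with array centring (-0.31, limma adjusted p = 0.0566).

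Bcl2l11, which encodes Bim, was at 8.55 and 8.64 in Zfp322a RNAi, against 8.68 and 8.81 in control RNAi by its brightest probe set, a change of -0.15 ± 0.08 (SE, n = 2 each, limma adjusted p = 0.228). The nearest arrays of the groups were close, and the change was not past the test. Of its other probe sets, 2 were called higher and 1 lower over all probe sets. The pair called higher read 7.68 and 7.58 in Zfp322a RNAi, against 7.29 and 7.32 in control RNAi (0.33, limma adjusted p = 0.0369), and 6.04 and 5.80 in Zfp322a RNAi, against 5.21 and 5.56 in control RNAi (0.54, limma adjusted p = 0.0467). The one called lower read 5.99 and 5.90 in Zfp322a RNAi, against 6.34 and 6.40 in control RNAi (-0.43, limma adjusted p = 0.0158). Bim is known to be made as several splice forms, and no probe set was assigned to one here. The other BH3-only genes were not called, with changes of -0.22 for Bik, -0.12 for Bad, -0.01 for Bid and 0.06 for Hrk.

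Caspases are the proteases of cell death, of which caspase-2, caspase-8 and caspase-9 initiate, caspase-6 executes, and caspase-1 and caspase-4 act mainly in inflammation. Of the 6 measured, Casp2 alone was called, with the furthest upward change of all members by brightest probe set. Casp2, whose product is activated on the PIDDosome after DNA damage or surplus centrosomes, was at 9.20 and 9.28 in Zfp322a RNAi, against 8.68 and 8.76 in control RNAi. Both Zfp322a RNAi arrays lay well above both control arrays, a change of 0.52 ± 0.07 (SE, n = 2 each, limma adjusted p = 0.00486), 1.43-fold higher with a 95% interval of 0.34 to 0.70 in log2. Casp2 has 1 probe set, so no second one was there to set beside it. It passed the test in 7 of 7 alternatives that kept all arrays and had a test, and stayed under the 1.5-fold rule, which has none. With 1 probe set, its values could not change in the alternatives that average or leave out probe sets, which are no support for Casp2.

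Among the other initiators, Casp8 changed by 0.18 (6.86 and 6.84 in Zfp322a RNAi, 6.63 and 6.71 in control RNAi) with the groups apart, but did not pass (limma adjusted p = 0.114). Casp9 changed by 0.07 and the executioner Casp6 by -0.10, neither past the test. Casp1 and Casp4 changed by 0.04 and 0.17, with values of 3.57 to 4.12 that few probe sets fell below (7.46% and 11.5%), where a difference is hard to see.

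**Figure D2:**
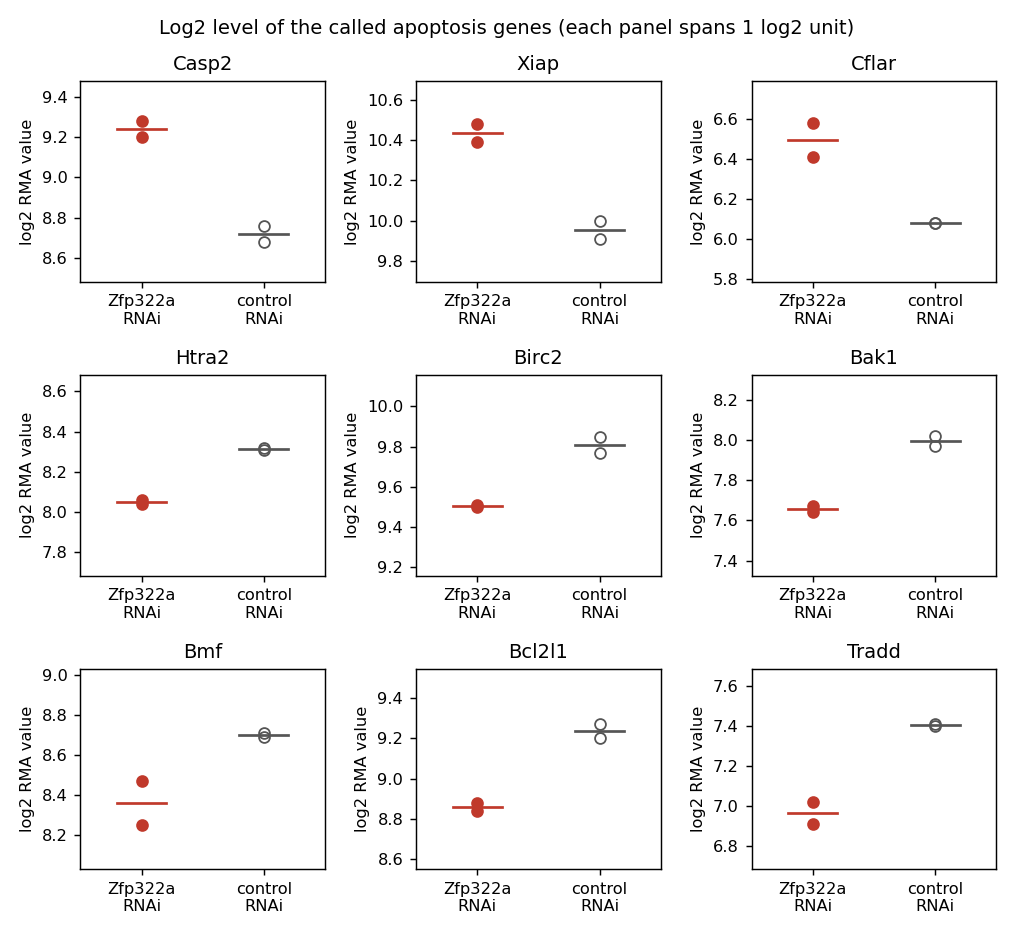
Log2 RMA value (vertical axis) of the 9 called apoptosis genes on each Zfp322a RNAi array (red, left) and each control RNAi array (open grey, right), with a line at each group's mean and the same span of 1 log2 unit in every panel. Casp2, Xiap and Cflar lie higher in Zfp322a RNAi and the other 6 lower, with no overlap between the groups in any panel. The panels were picked by the test, so this is no further support, and groups lay apart for 62.6% of all genes.

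The apoptosome and the proteins released from mitochondria varied least of the classes, with a median absolute change of 0.05 over 6 genes. Htra2, a mitochondrial serine protease that antagonises IAP proteins once it reaches the cytosol, was the 1 called. It was at 8.06 and 8.04 in Zfp322a RNAi, against 8.31 and 8.32 in control RNAi, with the arrays of each group nearly identical and the groups apart. The change was -0.27 ± 0.07 (SE, n = 2 each, limma adjusted p = 0.0311), 83.2% of control. Adjusted over all probe sets instead, this one lay just outside (limma adjusted p = 0.0553). Its second probe set was also lower, at 7.86 and 7.78 in Zfp322a RNAi, against 8.17 and 8.35 in control RNAi (-0.44, limma adjusted p = 0.0227 over all probe sets). Both probe sets are of a design that can bind more than 1 transcript, and after array centring Htra2 lay at the threshold (-0.24, limma adjusted p = 0.0502).

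The core of the apoptosome was not called. Apaf1, its scaffold, was at 9.29 and 9.23 in Zfp322a RNAi, against 9.17 and 9.21 in control RNAi, narrowly apart, and its change of 0.07 did not pass (limma adjusted p = 0.508). Cycs, cytochrome c, was at 13.11 and 13.02 in Zfp322a RNAi, against 13.16 and 12.99 in control RNAi, with the groups overlapping and a change of -0.01. Diablo changed by 0.03, Aifm1, a mitochondrial oxidoreductase that moves to the nucleus in caspase-independent death, by -0.01, and Endog, a mitochondrial nuclease, by -0.14, none past the test.

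IAP proteins block caspases or mark proteins for degradation through their RING domains. The class held calls in both directions, 1 higher and 1 lower of 5. Xiap, a direct inhibitor of caspases, was at 10.48 and 10.39 in Zfp322a RNAi, against 10.00 and 9.91 in control RNAi. The groups lay apart, and Xiap was 1.39-fold higher (0.48 ± 0.08 in log2, SE, n = 2 each, limma adjusted p = 0.0068). Of its 7 probe sets, 3 were called higher and 0 lower, the other pair at 0.73 (limma adjusted p = 0.0245) and 0.57 (limma adjusted p = 0.0374) but dim, and the remaining 4 ran from -0.01 to 0.27. Like Casp2, Xiap passed in 7 of 7 alternatives with a test that kept all arrays, and its brightest probe set stayed under 1.5-fold.

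Birc2, or cIAP1, which ubiquitinates Ripk1 at the TNF receptor, was at 9.50 and 9.51 in Zfp322a RNAi, against 9.77 and 9.85 in control RNAi. The groups did not overlap, and it was lower by -0.31 ± 0.07 (SE, n = 2 each, limma adjusted p = 0.0237), 80.9% of control, by its 1 probe set. Its close relative Birc3, or cIAP2, was at 7.04 and 7.11 in Zfp322a RNAi and 6.87 and 6.76 in control RNAi, a change of 0.26 just outside the threshold (limma adjusted p = 0.0509). With array centring Birc3 passed, at 0.29 (limma adjusted p = 0.0347), but it passed in only 2 of 6 alternatives with a test and all arrays. Its dimmer probe set changed by 0.01, and the mean over its probe sets was not called (0.135, limma adjusted p = 0.183). Birc5, or survivin, a mitotic protein abundant in dividing cells, changed by -0.05 and was at 11.70 to 11.77 on all arrays.

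Birc6, a very large IAP with ubiquitin-conjugating activity, changed by -0.04 by its brightest probe set (10.66 and 10.63 in Zfp322a RNAi, 10.73 and 10.64 in control RNAi), with overlapping groups. As for Bcl2l11, dimmer probe sets were called in opposite directions over all probe sets. One was at 8.10 and 8.04 in Zfp322a RNAi, against 8.41 and 8.59 in control RNAi (-0.43, limma adjusted p = 0.0234). Another was at 5.08 and 4.89 in Zfp322a RNAi, against 4.31 and 4.08 in control RNAi (0.79, limma adjusted p = 0.0065). These were the 2 members with calls in both directions, and 11 members had at least 1 probe set called. Neither share was computed over all genes, and a gene with more probe sets has more chances of a call, so nothing is read from them. Over the 93 probe sets of the members, 8 were called higher and 8 lower, beside 20.1% of all 45037 probe sets called in either direction.

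**Figure D3:**
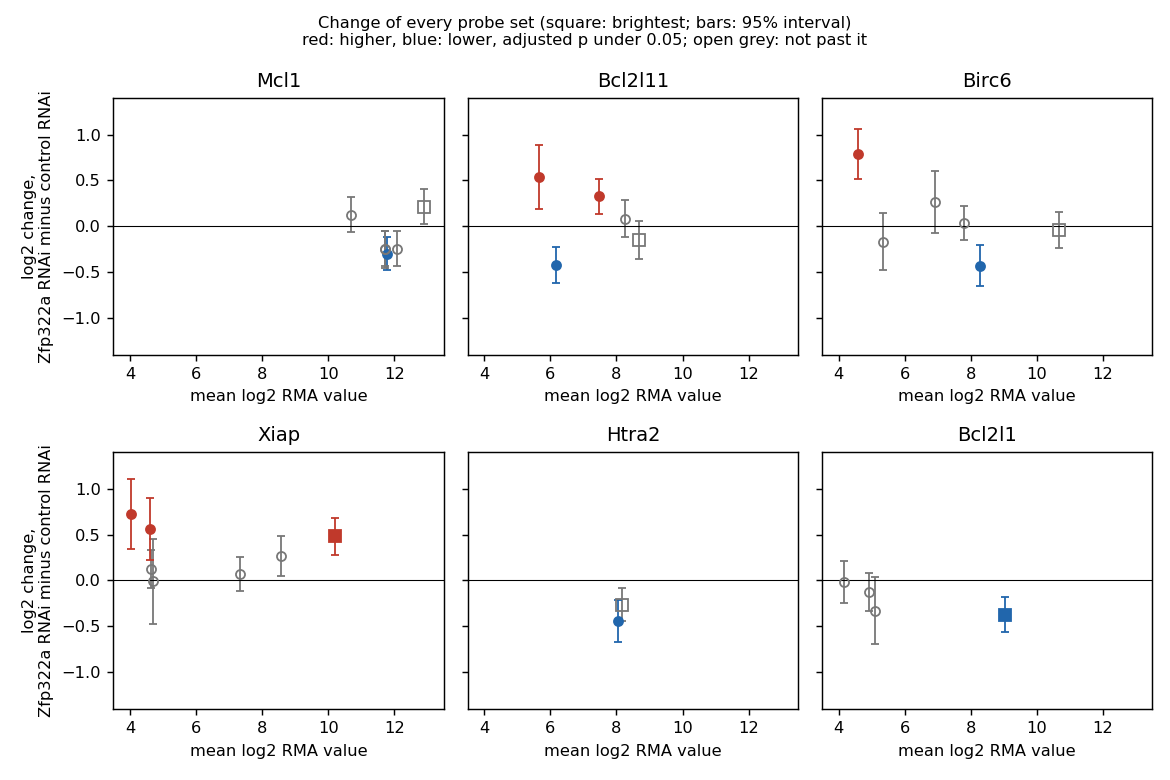
Log2 change, Zfp322a RNAi minus control RNAi, with its 95% interval (vertical axis) of every probe set of 6 apoptosis genes, against the mean of its log2 RMA values (horizontal axis). Squares mark the brightest probe set, which stands for the gene, red and blue filled symbols are called higher and lower over all probe sets, and open grey symbols are not called. Bcl2l11 and Birc6 hold red and blue symbols together, and for Htra2 the dimmer probe set is the one called over all probe sets (limma adjusted p = 0.0227, and 0.0553 for the brightest).

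Death receptor adaptors connect the receptors of the TNF family to caspase-8. Tradd, the adaptor of TNF receptor 1, had the furthest fall of all members by brightest probe set. It was at 7.02 and 6.91 in Zfp322a RNAi, against 7.41 and 7.40 in control RNAi, with the groups well apart. The change was -0.44 ± 0.07 (SE, n = 2 each, limma adjusted p = 0.00824), 73.7% of control. Its dimmer probe sets changed by -0.18 and -0.23, in the same direction but not past the test. The brightest is of a design for several transcripts of the same gene. Without probe sets that can bind more than 1 transcript the call was therefore lost (-0.18, limma adjusted p = 0.136).

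Cflar, a caspase-8 homologue without protease activity, was at 6.41 and 6.58 in Zfp322a RNAi, against 6.08 on both control RNAi arrays. The groups lay apart, and Cflar was 1.33-fold higher (0.42 ± 0.08 in log2, SE, n = 2 each, limma adjusted p = 0.0147). Of its 4 dimmer probe sets the brightest changed by 0.32 and the other 3 by 0.02 to 0.09, none past the test, and the mean over the 5 was not called (0.18, limma adjusted p = 0.0750). Fadd was at 7.41 and 7.45 in Zfp322a RNAi and 7.56 and 7.69 in control RNAi, a change of -0.20 (limma adjusted p = 0.117). Tnfrsf1a, TNF receptor 1 itself, changed by -0.03, with overlapping groups.

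Of the other death-associated genes 0 were called. Pdcd4, a translation inhibitor and tumour suppressor, was at 10.43 and 10.36 in Zfp322a RNAi, against 10.54 and 10.57 in control RNAi. The groups did not overlap, but the change of -0.16 ± 0.07 did not pass (SE, n = 2 each, limma adjusted p = 0.147). Dapk1, a calmodulin-regulated kinase, changed by 0.04. For the 26 members not called, 95% intervals of the brightest probe set's change ran between -0.45 and 0.58. By that probe set all 26 lay within 1.5-fold in either direction. Intervals of some dimmer probe sets of these genes passed 1.5-fold, as for Birc6 (0.51 to 1.07) and Bid (-0.73 to 0.54). Near the threshold of 0.05, Bmf lay just inside at an adjusted p of 0.0402, and Birc3, Bcl2l2 and Mcl1 just outside at 0.0509, 0.0513 and 0.0656 (limma). With any 1 array left out, 0 members and 0 genes passed the adjusted p of limma, while an unadjusted p under 0.05 was found for 10 members (4 higher, 6 lower) and for 5147 to 5768 genes.

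Further apoptosis genes outside this core also changed in both directions. Of 88 such genes listed, 80 were measured, and 11 were higher and 16 lower (33.8%, with 28.4% of all genes). Of the 80, 9 moved past 1.5-fold, with 8.25% of all genes, and a difference from the members was not tested. The median change was -0.08, with -0.04 over all genes. Groups lay apart for 59 of the 80 (73.8%, with 62.6% of all genes). The called genes below were picked by the test, so groups lying apart in them is no further support.

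The BCL2 relatives moved furthest apart. Bnip3, a mitochondrial protein of mitophagy and hypoxia, was at 9.30 and 9.24 in Zfp322a RNAi, against 10.91 and 10.76 in control RNAi, 33.8% of control (-1.57, limma adjusted p = 7.14e-04). Pmaip1, the BH3-only protein Noxa that binds Mcl1, was at 10.38 and 10.27 in Zfp322a RNAi, against 9.65 and 9.58 in control RNAi (0.71, limma adjusted p = 0.00222). Neither gene's groups overlapped. Beside the BH3-only members, of which 1 of 6 was called and that one lower, Pmaip1 was a BH3-only gene called higher. Bbc3 (Puma), named here after its values were seen, changed by 0.25 without passing the test.

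Among receptors and their signalling, Eda2r, a TNF receptor family member, was at 10.67 and 10.68 in Zfp322a RNAi, against 9.33 and 9.18 in control RNAi, 2.68-fold higher (1.42, limma adjusted p = 7.78e-04). The deubiquitinases Tnfaip3 (A20) and Cyld, which trim ubiquitin chains in TNF signalling, were both higher. Tnfaip3 was at 6.81 and 6.63 in Zfp322a RNAi, against 6.14 and 6.02 in control RNAi (0.64, limma adjusted p = 0.00493), though its dimmer probe set changed by -0.12. Cyld was at 8.72 and 8.66 in Zfp322a RNAi, against 8.20 and 8.13 in control RNAi (0.53, limma adjusted p = 0.00429). Of its 4 probe sets, 2 were called higher over all probe sets, and the others changed by -0.02 and -0.16 without passing. Bcl10, an adaptor to NF-kB in lymphocytes, was at 10.63 and 10.61 in Zfp322a RNAi, against 9.84 and 9.96 in control RNAi (0.72, limma adjusted p = 0.00204). In all 4 genes the groups lay apart by their brightest probe set.

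Genes that act beside the caspases and IAP proteins also moved both ways. Xaf1, which binds and counteracts Xiap, was at 9.99 and 9.92 in Zfp322a RNAi, against 10.98 and 11.03 in control RNAi, 48.3% of control (-1.05, limma adjusted p = 9.79e-04), while Xiap was higher. Pycard, the adaptor of the inflammasome, was at 9.27 and 9.29 in Zfp322a RNAi, against 9.89 and 10.04 in control RNAi (-0.69, limma adjusted p = 0.00271). Casp8ap2, a caspase-8 binding nuclear protein, was at 11.81 and 11.68 in Zfp322a RNAi, against 11.35 and 11.14 in control RNAi (0.50, limma adjusted p = 0.0139). The groups did not overlap in any of the 3.

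Cidea, a protein of lipid droplets and DNA fragmentation, was at 8.00 and 8.02 in Zfp322a RNAi, against 6.48 and 6.41 in control RNAi, 2.96-fold higher (1.57, limma adjusted p = 5.49e-04). Vdac1, the abundant channel of the outer mitochondrial membrane, was at 12.24 and 12.23 in Zfp322a RNAi, against 12.82 and 12.88 in control RNAi (-0.62, limma adjusted p = 0.00243). Pgam5, a mitochondrial phosphatase, was at 11.01 and 10.97 in Zfp322a RNAi, against 10.47 and 10.58 in control RNAi (0.47, limma adjusted p = 0.00711). The groups lay apart for all 3 genes. These 12 are those with the largest changes among the 27 called.

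**Figure D4:**
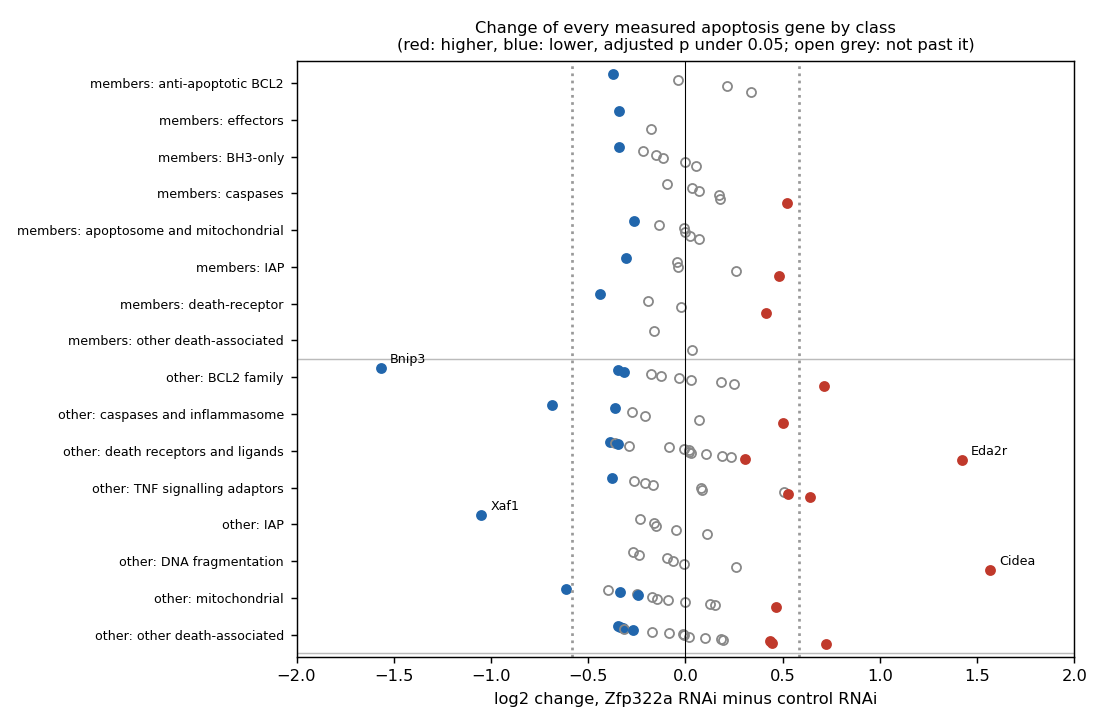
Log2 change, Zfp322a RNAi minus control RNAi (horizontal axis), of the 35 members (upper rows) and the 80 other measured apoptosis genes (lower rows) by class, 1 point per gene. Filled red and blue points are called higher and lower, open points are not called, and dotted lines mark 1.5-fold. By brightest probe set, all members lie inside the dotted lines, while Bnip3 (-1.57), Xaf1 (-1.05), Eda2r (1.42) and Cidea (1.57) lie furthest outside.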

How the data were processed

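The authors processed the scanned Affymetrix arrays with RMA (background subtraction, quantile normalization, summary per probe set; the sources used here give no version). The deposited log2 values of 45037 probe sets, rounded to 2 decimals, entered unchanged. Since RMA equalises the distributions of the arrays, it would hide a shift common to all genes, and array medians were 6.07 to 6.11. A microarray carries no read depth, and the number of arrays limits the precision (median SE of a log2 change 0.079).

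Groups came from the sample titles. Probe sets with 1 gene symbol (34945) gave 18193 genes through the platform annotation and RefSeq (GRCm38.p6), of which the brightest probe set (mean of the 4 values) stood for the gene. Groups were compared with limma 3.58.1 in R 4.3.3 (lmFit, eBayes, two-sided, 2 residual degrees of freedom, Benjamini-Hochberg adjustment over all genes, threshold 0.05). A run on data simulated from limma's own model checked the code, and cannot show whether its assumptions hold for these arrays. A separate fit with adjustment over all probe sets gave each probe set its call. The study's methods used a 1.5-fold rule without a test, which was run as an alternative. An exact permutation test with 2 against 2 could not go below 0.333. Deviations of arrays with the same replicate number correlated at 0.041, so numbers were not taken as pairs.

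The members, the 88 other apoptosis genes and the marker lists were chosen with earlier results of these data known. Per-array values are given for called members, for the member of lowest p in each class, for members with a differing probe set, and for the 12 other called genes with the largest changes. Those of Bcl2l2, Bok, Casp8, Cycs, Apaf1, Birc3 and Fadd were added after their values were seen. Alternatives were array centring, a second quantile normalization, the mean of all probe sets, and dropping probe sets that can bind more than 1 transcript. These carry the suffixes _x_at, _s_at and _a_at, of which _a_at marks several transcripts of the same gene. The rest were leaving out genes under the median level, a variance trend, a replicate block, the 1.5-fold rule and leaving out each array. No set test was made.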

Additional observations from a re-analysis of the deposited data

How the results depend on the processing

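With 2 arrays a group, small changes rest on few residual degrees of freedom, and a call depends on borrowed variance. Casp2 and Xiap kept their calls in 7 of 7 alternatives that had a test and all arrays, but not by the 1.5-fold rule. For Casp2, with a single probe set, averaging or leaving out probe sets could not change the values. With each array left out in turn, the counts of members, of other apoptosis genes and of all genes past the adjusted p of limma were 0 throughout (0 higher, 0 lower), the lone array being assumed to vary like the other group's. The lowest adjusted p of a called member was then 0.0879 (Xiap).

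Members called higher numbered 3 and became 6 with array centring, 5 with quantile normalization, 5 with a variance trend and 0 by the 1.5-fold rule. Centring added Bcl2l2, Birc3 and Mcl1. All genes called higher numbered 2545 and became 2798, 2560 and 3081 with centring, quantile normalization and the trend, and those called lower numbered 2618 and became 2216, 2866 and 3187. Members called lower numbered 6 and became 2 with the replicate block and 0 by the 1.5-fold rule. They became 3 without probe sets that can bind more than 1 transcript. Without those probe sets Htra2 had no value. Other apoptosis genes called lower numbered 16 and became 25 with a variance trend, 6 with the replicate block and 4 by the 1.5-fold rule, and those called higher numbered 11 and became 5 by the 1.5-fold rule.

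With the replicate block 2656 genes were called (1493 higher, 1163 lower), against 5163 without it, and Bak1, Bmf, Cflar, Htra2 and Birc2 lost theirs (limma adjusted p 0.0524 to 0.109). The same numbers showed no pairing of the arrays. By the 1.5-fold rule 1501 genes passed (919 higher, 582 lower).

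Signs turned for members that were not called, and for Bmf. Averaging all probe sets of a gene gave 0.031 for Bcl2, -0.117 for Mcl1, 0.073 for Bcl2l11, 0.015 for Bid, -0.0075 for Hrk, -0.0167 for Casp9, 0.0888 for Cycs, -0.0475 for Diablo and 0.075 for Birc6. Without probe sets that can bind more than 1 transcript the change was 0.08 for Bcl2l11, 0.035 for Bmf and 0.085 for Cycs. With array centring it was 0.025 for Bid, 0.02 for Cycs, 0.025 for Aifm1 and 0.005 for Tnfrsf1a, and with quantile normalization -0.0312 for Diablo. With 1 array left out, changes ran from -0.105 to 0.095 for Bid, -0.025 to 0.135 for Hrk, -0.005 to 0.075 for Casp1, -0.095 to 0.075 for Cycs, -0.025 to 0.075 for Diablo, -0.055 to 0.045 for Aifm1, -0.085 to 0.005 for Birc6, -0.125 to 0.075 for Tnfrsf1a and -0.04 to 0.11 for Dapk1. Why these signs turned was not tested.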

Other observations

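A pair of further groups, chosen after their values were seen, stood beside the death receptor and mitochondrial members. The linear ubiquitin chain assembly complex, which modifies signalling complexes downstream of Tradd, is made of Rnf31, Rbck1 and Sharpin. Rbck1 was at 8.68 and 8.81 in Zfp322a RNAi, against 9.07 and 9.18 in control RNAi, and was lower (-0.38, limma adjusted p = 0.0198). Rnf31 changed by -0.27 and Sharpin by -0.21 without passing the test, though the second probe set of Sharpin was called lower over all probe sets (-0.33, limma adjusted p = 0.0309).

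The voltage-dependent anion channels of the outer mitochondrial membrane changed unequally. Vdac1 was called lower over all probe sets by 4 of its 5 probe sets (-0.53 to -0.68), and the dimmest changed by -0.19 without passing. Vdac3 was at 11.21 on both Zfp322a RNAi arrays, against 11.49 and 11.42 in control RNAi (-0.25, limma adjusted p = 0.0452 over genes). Adjusted over all probe sets, Vdac3 was not called (limma adjusted p = 0.0764). Vdac2 was at 12.53 and 12.58 in Zfp322a RNAi and 12.52 and 12.59 in control RNAi, a change of 0.00. The difference between these genes was not tested.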
